A study of Rattus norvegicus with 10 samples.

Results

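The Hoxb cluster genes Hoxb2, Hoxb3, Hoxb4, Hoxb5, Hoxb6, Hoxb7 and Hoxb8 were followed along their chromosomal order in fetal rat hearts. These 7 genes, of the 18025 listed, were chosen by symbol with the differences between the groups in these same libraries already known. For that reason their levels and fold changes are given as a description, with no test. The hearts came from wild-type Sprague-Dawley fetuses at embryonic day 19.5, sired by normoglycemic males. In the hyperglycemia (HG) group, 3-month-old dams received streptozotocin in citric acid buffer on 3 consecutive days and counted as diabetic at a non-fasting blood glucose above 16 mM. Streptozotocin kills the insulin-producing cells of the pancreas. Control (CON) dams received the buffer alone, so the injections themselves were shared by both groups. There were 5 CON and 5 HG libraries of polyadenylated RNA. The sources used here do not say how many dams or litters they came from, so that p-values measure only the spread between these libraries. The methods also mention a library of pooled RNA, while the values deposited differ from one library to the next in both groups. What 1 library stands for, and with it the meaning of each SD and n = 5, is thus uncertain.

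Hox genes encode homeodomain transcription factors that give cells their position along the head-to-tail axis. Within a cluster, genes at the 3′ end (low numbers) are switched on earlier and reach further forward than genes at the 5′ end, and retinoic acid, Cdx factors and the Polycomb and Trithorax complexes govern how far the cluster opens. In the embryo, 3′ Hox genes mark the posterior second heart field and the cardiac neural crest, and the proteins bind DNA with TALE partners of the PBX and MEIS families.

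The libraries held 16672876 to 19109844 reads on genes, and this depth did not separate the groups (two-sided exact permutation test, p = 0.77). The deposited values are FPKM, read numbers divided by gene length and library size. The reads behind them could be recovered, since the values went up in steps of 1 read, to within 0.03 read in 100% of genes. Differences are given as HG minus CON of log2(FPKM + 0.1), a scale that understates the change of low genes, and a gene was tested if its mean over the 10 libraries was at least 0.1 FPKM. Of 14542 genes tested with limma, 28.4% were higher and 11.8% lower in HG at an adjusted p under 0.05. With median-of-ratios factors applied to the libraries, 15.7% were higher and 17.5% lower, so the balance of directions depended on the scaling. The median log2 fold change of all genes tested was 0.09 as deposited and 0.01 after that scaling. Cardiomyocyte genes filled the libraries: the summed level of 10 such markers, among them Tnnt2 and Myh6, was 28322 to 29917 FPKM in CON and 24185 to 28166 FPKM in HG. The labels and methods call the samples hearts, while a legend of the study speaks of isolated cardiomyocytes, which would bear on which cells the Hoxb reads came from.

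All 7 genes were near the lower end of what the libraries held. Hoxb2 had a mean of 0.803 FPKM over the 10 libraries, above 33.4% of the genes listed, and Hoxb8 had 0.0335 FPKM, above 13.1%. The median of the genes tested was 7.26 FPKM. In a bulk sample such a level can come from a few cells with much RNA or from many cells with little, and fewer cells of a type cannot be told apart from less RNA per cell. The authors' annotation gave all 7 genes the terms anterior/posterior pattern specification and embryonic skeletal system morphogenesis and no KEGG pathway.

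Read numbers set the precision of what follows. Together the 7 genes held 40 to 69 reads in a CON library and 61 to 94 in an HG library, 267 and 394 reads in all. One read in a library was worth between 0.0257 FPKM (Hoxb8) and 0.0460 FPKM (Hoxb7), but 0.00431 FPKM in Hoxb3. The FPKM of Hoxb3 imply a gene model of 12956 bases, against 1214 to 2171 bases for the others, so that Hoxb3 had a low FPKM with the second largest number of reads in the cluster. Limits derived from read numbers cover counting error only.

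**Figure D1:**
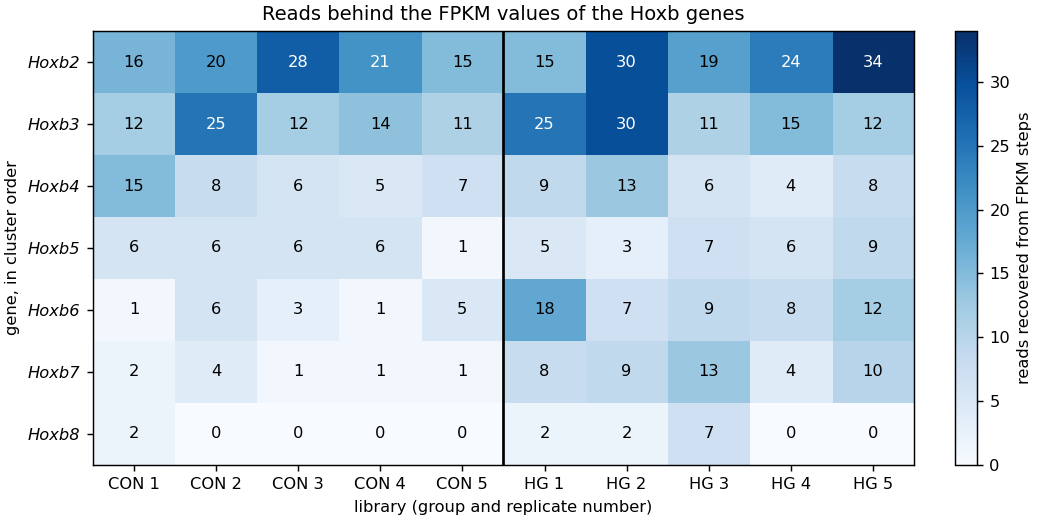
Reads recovered for each Hoxb gene (rows, in cluster order) in each CON and HG library (columns), with darker blue for more reads. Hoxb6 and Hoxb7 had 1 to 6 reads in the CON libraries and 4 to 18 in the HG libraries, while Hoxb2 had 15 to 34 throughout.

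In CON hearts the levels fell from the 3′ to the 5′ end of the cluster, with Hoxb3 as the exception. The means were 0.716 FPKM for Hoxb2, 0.257 for Hoxb4, 0.181 for Hoxb5, 0.114 for Hoxb6, 0.0821 for Hoxb7 and 0.0102 for Hoxb8, and Hoxb3 lay between Hoxb7 and Hoxb8 with 0.0634 FPKM. In HG hearts this order was broken in the middle. Hoxb2 was again the highest with 0.889 FPKM, followed by Hoxb7 with 0.409, Hoxb6 with 0.386, Hoxb4 with 0.252, Hoxb5 with 0.223, Hoxb3 with 0.0794 and Hoxb8 with 0.0568 FPKM. Neighbours in these orders overlapped in their libraries, except Hoxb2 and Hoxb4 in CON, where the lowest Hoxb2 value (0.545 FPKM) lay above the highest Hoxb4 value (0.468 FPKM).

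Hoxb2 and Hoxb3, the anterior genes of the group, pattern the hindbrain and the neural crest that leaves it. Hoxb2 (NCBI Gene 100361765) was listed at 0.568, 0.705, 1.02, 0.742 and 0.545 FPKM in CON replicates 1 to 5, and at 0.505, 1.05, 0.705, 0.874 and 1.31 FPKM in HG replicates 1 to 5. Both the highest and the lowest library were HG libraries, and the groups overlapped over most of their range. The CON mean was 0.716 ± 0.190 FPKM and the HG mean 0.889 ± 0.311 FPKM (SD, n = 5 each), a log2 fold change of 0.25 ± 0.226 (SE) that is about as large as its error.

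Hoxb3 (NCBI Gene 303488) was listed at 0.0511, 0.106, 0.0525, 0.0594 and 0.0480 FPKM in CON and at 0.101, 0.126, 0.0489, 0.0656 and 0.0555 FPKM in HG. CON replicate 2 and HG replicates 1 and 2 were high, with 25, 25 and 30 reads, and the other 7 libraries had 11 to 15 reads. The high libraries thus came from both groups. With a mean of 0.0714 FPKM the gene did not pass the filter, and its log2 fold change was 0.13 ± 0.146 (SE) in a fit without the filter.

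Hoxb4, known for expanding blood stem cells when overproduced, showed the smallest difference. Hoxb4 (NCBI Gene 497988) was listed at 0.468, 0.248, 0.192, 0.155 and 0.224 FPKM in CON and at 0.266, 0.400, 0.195, 0.128 and 0.271 FPKM in HG. The highest value was that of CON replicate 1 and the lowest that of HG replicate 4, and 41 reads in CON stood against 40 in HG. The log2 fold change was -0.01 ± 0.260 (SE), and it lay between -0.15 and 0.17 when single libraries were left out.

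Hoxb5 acts in lung branching and in the neural crest of the gut. Hoxb5 (NCBI Gene 497987) was listed at 0.216, 0.214, 0.222, 0.215 and 0.0368 FPKM in CON and at 0.170, 0.106, 0.263, 0.221 and 0.352 FPKM in HG. CON replicates 1 to 4 had 6 reads each and replicate 5 had 1 read, whereas the HG libraries spread from 3 to 9 reads around the same level. The log2 fold change was 0.22 ± 0.290 (SE), and without CON replicate 5 it was -0.02.

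**Figure D2:**
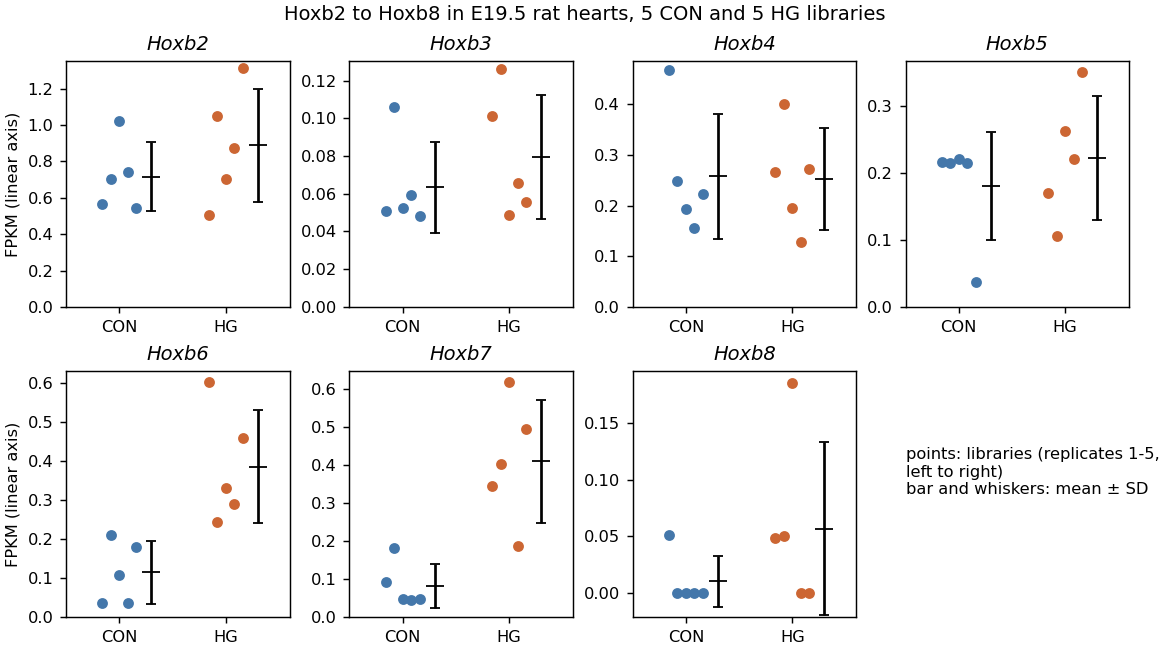
FPKM of Hoxb2 to Hoxb8 on linear axes, each with its own scale, with 1 point per library (replicates 1 to 5 from left to right), and the mean and SD of 5 CON (blue) and 5 HG (orange) libraries. The groups are apart in Hoxb6 and, by a small margin, in Hoxb7, and overlap in the other 5 genes.

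Hoxb6 and Hoxb7 stood apart from the 4 genes on their 3′ side in these data. Hoxb6 is active in lateral plate mesoderm and in early blood formation, and the Hoxb7 promoter is known for its activity in the nephric duct. Hoxb6 (NCBI Gene 497986) was listed at 0.0354, 0.211, 0.109, 0.0352 and 0.181 FPKM in CON and at 0.603, 0.244, 0.332, 0.290 and 0.461 FPKM in HG. Each HG library was above each CON library, from 1 to 6 reads in CON to 7 to 18 reads in HG. The means were 0.114 ± 0.0810 and 0.386 ± 0.146 FPKM (SD, n = 5 each), a ratio of 3.38, and the log2 fold change was 1.22 ± 0.292 (SE). Leaving out single libraries gave 1.07 to 1.38.

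Hoxb7 (NCBI Gene 497985) was listed at 0.0910, 0.181, 0.0467, 0.0453 and 0.0466 FPKM in CON and at 0.345, 0.404, 0.618, 0.187 and 0.494 FPKM in HG. CON replicates 3 to 5 rested on 1 read each. The groups did not overlap, but the highest CON value (replicate 2, 0.181 FPKM) and the lowest HG value (replicate 4, 0.187 FPKM) both stood for 4 reads, and after median-of-ratios scaling they were 0.185 and 0.184. The means were 0.0821 ± 0.0585 and 0.409 ± 0.162 FPKM (SD, n = 5 each), a ratio of 4.99, and the log2 fold change was 1.47 ± 0.277 (SE). Hoxb7 passed the filter through its HG libraries, since its CON mean lay under 0.1 FPKM.

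The size of both changes depended on the constant added before taking logarithms. With 1 FPKM in place of 0.1 FPKM the log2 fold changes were 0.31 for Hoxb6 and 0.38 for Hoxb7, and with 0.01 FPKM they were 1.90 and 2.28. With no constant, the ratios of mean FPKM corresponded to 1.76 and 2.32. The direction could not differ between these, since the groups did not overlap in either gene.

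Hoxb8, the most 5′ of the 7 genes, is known from myeloid progenitors and microglia. Hoxb8 (NCBI Gene 24457) had 2 reads in CON replicate 1 (0.0509 FPKM) and none in the other 4 CON libraries. In HG it had 2, 2 and 7 reads in replicates 1 to 3 (0.0482, 0.0501 and 0.186 FPKM) and none in replicates 4 and 5. A library without a read allows a level of up to 0.0772 FPKM (3 reads), so most of these libraries cannot be ordered. In all, 2 reads in CON stood against 11 in HG, and 7 of the 11 came from HG replicate 3. The gene did not pass the filter.

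Along the cluster, 5 of the 7 genes passed the filter. The groups did not overlap in Hoxb6 and Hoxb7, both with HG higher, a pattern seen in 19.3% of all genes tested with HG higher and in 8.12% with HG lower. These shares are background from which nothing is read, since the members were selected on this contrast.

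**Figure D3:**
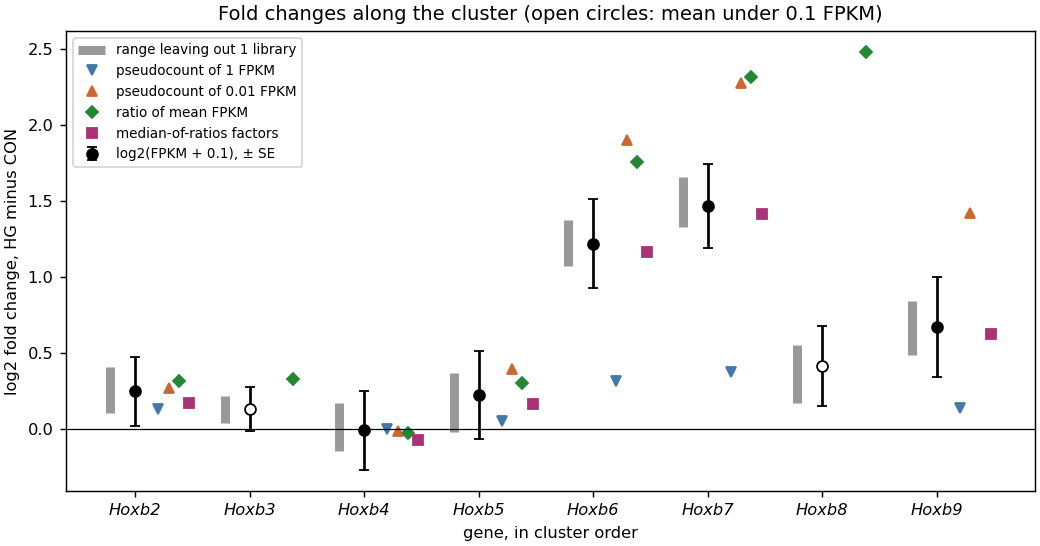
Log2 fold changes (HG minus CON) of Hoxb2 to Hoxb9 in cluster order, as log2(FPKM + 0.1) with SE (black, open where the mean is under 0.1 FPKM), with the range over leaving out single libraries (grey) and 4 other ways of computing it. Hoxb6 and Hoxb7 lie at 1.22 and 1.47, and the 4 genes from Hoxb2 to Hoxb5 lie between -0.01 and 0.25.

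Hoxb6 and Hoxb7 were also added up, a pair formed after their values were seen, so that their share of the cluster's reads restates the values above without the scaling of the libraries. In CON, Hoxb6 and Hoxb7 together had 3, 10, 4, 2 and 6 reads, or 4.17% to 15.0% of the reads of the 7 genes (median 7.14%). In HG they had 26, 16, 22, 12 and 22 reads, or 17.0% to 31.7% (median 25.9%). Hoxb2 to Hoxb5 together had 34 to 59 reads in CON and 43 to 76 in HG, which overlapped.

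Some reads may belong to overlapping transcripts. In the gene models of the RefSeq assembly GRCr8, the long noncoding RNA Hoxb5os overlaps Hoxb5 and Hoxb6, and another, LOC102550580, overlaps Hoxb3. Neither was in the table. The library kit keeps the strand, but the strand setting of the counting is not given in the sources used here, so reads of these RNAs cannot be told apart from those of the Hoxb genes. Nor is it given how reads shared by similar paralogs were counted. Hoxb7, Hoxb2, Hoxb4 and Hoxb8 overlap no other gene model there.

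The remaining Hoxb gene of the table, Hoxb9 (NCBI Gene 287647), lies next to Hoxb8 and takes part in patterning the thorax. It was listed at 0.0589, 0.117, 0, 0.0586 and 0.121 FPKM in CON and at 0.112, 0.116, 0.0615, 0.242 and 0.384 FPKM in HG, from 6 and 15 reads in all. HG replicates 4 and 5 were above every CON library and the other 3 lay within the CON range. The log2 fold change was 0.67 ± 0.330 (SE) and did not pass (limma, adjusted p = 0.127). Hoxb9 passed the filter through its HG libraries, since its CON mean was 0.0710 FPKM. Hoxb1 and Hoxb13, at the ends of the cluster, were not analysed here.

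Most other Hox genes were too low to test. Of the 19 Hox genes in the table that are not among the 7, 5 could be tested, 0 were higher and 1, Hoxa3, was lower in HG. At an unadjusted p under 0.05 the counts were likewise 0 and 1, as they were with voom on the recovered reads. Hoxa3, needed for the thymus, the parathyroid and the third pharyngeal arch, was listed at 0.323, 0.296, 0.433, 0.198 and 0.292 FPKM in CON and at 0.0471, 0.147, 0.156, 0.0637 and 0.108 FPKM in HG. Its groups did not overlap (123 reads in CON and 41 in HG), and it fell by 1.01 ± 0.225 (SE) on the log2 scale (limma, adjusted p = 0.00374). Over the alternatives in which it was tested, its adjusted p lay between 0.00209 and 0.0114. Hoxa2 (-0.43, adjusted p = 0.317) and Hoxd8 (-0.43, adjusted p = 0.197) had lower means in HG without passing the limma test.

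**Figure D4:**
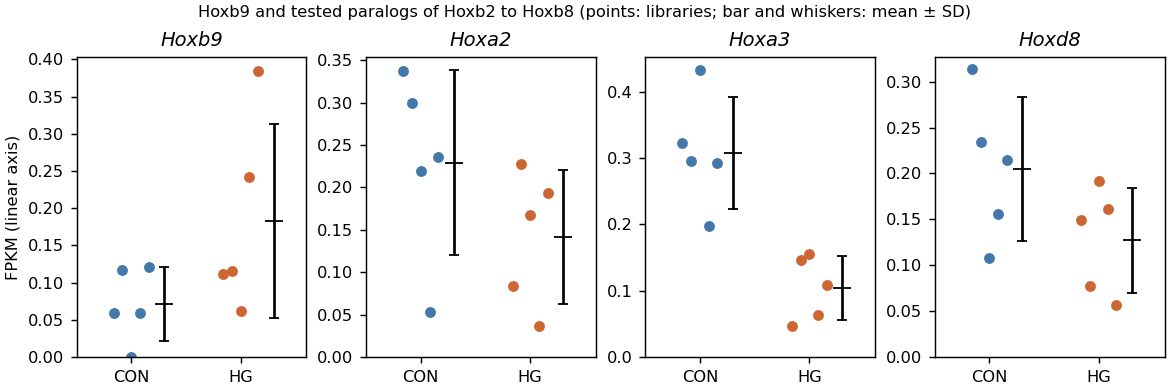
FPKM of Hoxb9 and of the 3 paralogs of Hoxb2 to Hoxb8 that passed the filter, on linear axes with separate scales, with 1 point per library and the mean and SD of 5 CON (blue) and 5 HG (orange) libraries. Hoxa3 is the only one of the 4 whose groups are apart, with CON at 0.198 to 0.433 FPKM and HG at 0.0471 to 0.156 FPKM.

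Set beside their paralogs, the genes with the same number in the other clusters, the Hoxb genes were mostly the higher copy per length. Hoxb4 (0.257 FPKM in CON and 0.252 in HG) was above Hoxa4 (0.0882 and 0.0907), Hoxc4 (0.0162 and 0.0163) and Hoxd4 (0.00726 and 0.0125). Hoxb5 was above Hoxa5, which had 0.0570 FPKM in CON and 0.0376 FPKM in HG, and above Hoxc5, with 5 reads in CON and 0 in HG. Hoxb2 was above Hoxa2, which had 0.229 and 0.142 FPKM. In the third paralog group the order of the means was reversed, and Hoxa3 was above Hoxb3 in both groups, with Hoxd3 the lowest at 0.0494 and 0.0388 FPKM. In HG the libraries of Hoxa3 and Hoxb3 overlapped. There Hoxb3 had more reads (93 against 41), on a longer implied gene model (12956 against 4448 bases). Hoxd8, at 0.205 and 0.127 FPKM, was likewise above Hoxb8.

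Among the paralogs of Hoxb6, Hoxb7 and Hoxb8, Hoxc6 and Hoxd8 held the most reads and the others few. Hoxa6 had 6 reads in CON and 0 in HG, and Hoxc6 had 47 reads in CON and 24 in HG. Hoxb6 had 16 and 54, on an implied gene model of 1562 bases against 10186 for Hoxc6. Hoxa7 had no read in CON and 4 in HG, 3 of them in replicate 1. In the eighth group, Hoxd8 had 39 reads in CON and 24 in HG, against 2 and 11 for Hoxb8. Hoxc8 had 1 read in all, in CON. All but Hoxd8 were below the filter and were not tested.

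The TALE homeodomain proteins with which Hox proteins bind DNA were well expressed and in part higher in HG. Of 9 such genes tested, 5 were higher and 0 lower (median log2 fold change 0.23, against 0.09 over all genes tested). Over all genes tested, 28.4% were higher and 11.8% lower. This list and those that follow were written with earlier results of these data known. Pbx3 rose from 20.2 ± 0.911 to 24.6 ± 0.867 FPKM, a log2 fold change of 0.29 (limma, adjusted p = 0.00027). Pbx2 rose from 29.4 ± 1.43 to 36.5 ± 1.89 FPKM, by 0.31 (adjusted p = 0.00029), and Meis2 from 26.3 ± 1.23 to 32.2 ± 2.27 FPKM, by 0.29 (adjusted p = 0.00107; SD, n = 5 each throughout). None of the 5 lost its call under any alternative run, and the groups did not overlap in any of them.

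The Polycomb complexes keep Hox clusters silent, and the Trithorax complexes keep them active. Of 13 genes of Polycomb repressive complex 2 and its opposing demethylases, 7 were higher and 0 lower in HG (median 0.19), led by the accessory subunits Mtf2 (0.34, adjusted p = 0.000133) and Jarid2 (0.32, adjusted p = 0.000588) and the histone chaperone Rbbp7 (0.19, adjusted p = 0.00584) in the limma fit. Of 18 genes of complex 1, 7 were higher and 0 lower (median 0.13), led by Pcgf6 (0.54, adjusted p = 0.00018), Pcgf2 (0.42, adjusted p = 0.000305) and Phc2 (0.21, adjusted p = 0.00112). Of 9 Trithorax genes, 6 were higher and 0 lower (median 0.17), led by Psip1, which tethers the complex to chromatin (0.43, adjusted p = 8.58e-05), Hcfc1 (0.30, adjusted p = 0.000779) and Wdr5 (0.22, adjusted p = 0.00106). Called genes on both sides of this balance were thus higher as deposited, as were 28.4% of all genes tested (11.8% lower). After median-of-ratios scaling the counts were 2 higher and 2 lower, 5 and 2, and 3 and 1, and Rbbp7 was no longer called. The lower genes were Ezh1 and Eed of complex 2, Pcgf5 and Ring1 of complex 1, and Rbbp5 of Trithorax. Of all genes tested, 15.7% were then higher and 17.5% lower.

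Retinoic acid opens Hox clusters from the 3′ end. Of 16 tested genes of its synthesis, breakdown, binding and receptors, 5 were higher and 1 lower in HG (median 0.16), against 28.4% and 11.8% of all genes. After median-of-ratios scaling, 3 of the 16 were higher and 2, Rxra and Rdh10, lower. Rdh10 (-0.28, adjusted p = 0.0641) and Cyp26a1 (-0.80, adjusted p = 0.0744) did not pass limma as deposited. With that scaling, Rdh10 fell by 0.36 (adjusted p = 0.0207). Aldh1a2, the main enzyme that makes retinoic acid in the embryo, rose from 10.7 ± 1.49 to 14.1 ± 1.06 FPKM, by 0.40 (limma, adjusted p = 0.00368). Dhrs3, which turns retinal back into retinol, rose from 5.17 ± 0.390 to 6.60 ± 0.593 FPKM, by 0.35 (adjusted p = 0.00295). The receptor gene Rxra fell by 0.17 (adjusted p = 0.0232), a call that was lost without CON replicate 3, CON replicate 4 or HG replicate 4 and with a replicate block (adjusted p up to 0.0556). Crabp2 and Aldh1a3, also higher, kept their calls in 6 of 19 alternatives each. The 3 receptor genes Rara (0.12, adjusted p = 0.0897), Rarb (0.07, adjusted p = 0.482) and Rarg (-0.08, adjusted p = 0.413) did not pass.

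Of 5 tested factors that set Hox expression along the axis, 2 were higher and 0 lower (median 0.16). Gdf11, a signal that shifts Hox expression at the trunk-to-tail transition, rose from 3.98 ± 0.255 to 5.68 ± 0.575 FPKM, by 0.50 (limma, adjusted p = 0.000371), and Ctcf, which insulates chromatin domains, by 0.16 (adjusted p = 0.00445, not called after median-of-ratios scaling). Cdx1 was below the filter. Over these 6 lists, 32 of 70 genes tested were higher and 1 lower as deposited, and 19 were higher and 7 lower after median-of-ratios scaling. At an unadjusted p under 0.05 they were 38 and 4, and with voom on the recovered reads 31 and 1. Of all genes tested, 28.4% were higher and 11.8% lower as deposited, and 15.7% and 17.5% after median-of-ratios scaling.

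**Figure D5:**
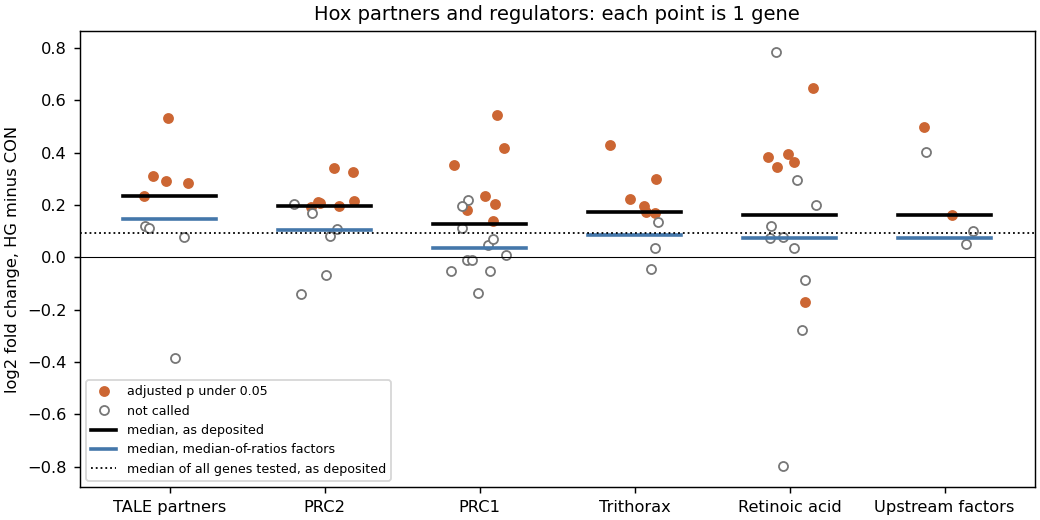
Log2 fold changes (HG minus CON) of tested Hox partner and regulator genes, 1 point per gene, filled where the adjusted p was under 0.05, with the median of each list as deposited (black) and after median-of-ratios scaling (blue), and the median of all genes tested (dotted). In each list the black bar lies above the dotted line at 0.09, with 32 of 70 genes called higher and 1 lower.

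Beyond the ends of the cluster, neighbouring genes did not share one direction. Among the 5 protein-coding genes on either side in the order of GRCr8, 7 were tested, 2 were higher and 1 lower. Of all genes tested, 28.4% were higher and 11.8% lower. On the Hoxb13 side, Atp5mc1, a subunit gene of mitochondrial ATP synthase, fell by 0.52, from 526 ± 38.1 to 366 ± 30.7 FPKM (limma, adjusted p = 6.21e-05), while Ube2z (0.10, adjusted p = 0.0621) and Snf8 (-0.09, adjusted p = 0.107) did not pass. On the Hoxb1 side, Nfe2l1 (0.14, adjusted p = 0.0182) and Copz2 (0.30, adjusted p = 0.0455) were higher, and Snx11 (-0.06, adjusted p = 0.51) and Cbx1 (0.08, adjusted p = 0.237) did not pass. Both higher calls were lost after median-of-ratios scaling, and that of Copz2 was also lost without CON replicates 1, 3 or 4 or HG replicates 1, 2, 3 or 5 (adjusted p over all alternatives 0.0106 to 0.152). Ttll6 and Skap1 were below the filter.

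Cells in which Hoxb genes are known to be active were looked for by their markers. Counts of called markers, here and in the next paragraph, stand beside 28.4% higher and 11.8% lower over all genes tested. Lung and foregut mesenchyme markers summed to 0.551 to 0.714 FPKM in CON and 0.405 to 0.618 in HG, with 0 of 2 tested genes called, and lung epithelium markers to at most 0.196 FPKM in any library. Thymus markers summed to at most 0.120 FPKM. Cardiac autonomic neuron and glia markers ranged from 7.77 to 9.33 FPKM in CON and from 6.85 to 9.60 in HG, with 1 of 5 higher and 2 lower. Blood progenitor markers ranged from 61.4 to 67.5 FPKM in CON and from 51.9 to 59.3 in HG, with Kit and Cd34 of 5 tested genes lower and 0 higher. Most of this sum was Cd34, with means of 52.4 FPKM in CON and 44.5 in HG. Gata2, Spn and Myb had log2 fold changes of 0.17, 0.29 and 0.31 without passing, and the median of the list was 0.17.

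Other markers are given for the cells of the heart and of tissues near it. Vascular smooth muscle markers summed to 658 to 787 FPKM in CON and 896 to 1127 in HG (3 of 6 higher, 1 lower). Most of this sum was Acta2, with means of 538 FPKM in CON and 673 in HG. Lmod1 was the lower gene, and Myh11 (0.24) and Mylk (-0.04) did not pass. Epicardium markers summed to 23.6 to 29.5 and 28.1 to 33.6 FPKM (1 of 8 higher, 1 lower). Fibroblast markers summed to 1236 to 1479 and 1140 to 1332 FPKM (2 of 9 higher, 4 lower), and cardiomyocyte markers included 1 higher and 7 lower of 10. Red cell precursor markers were 61.7 to 112 FPKM in CON and 41.3 to 59.3 in HG (5 of 7 lower). Fetal liver markers were 3.12 to 7.88 FPKM in 4 CON libraries, 76.4 in CON replicate 3 and 0.852 to 2.51 in HG (4 of 6 lower). After median-of-ratios scaling 3 of these markers were lower, and with voom on the recovered reads 1 was. Skeletal muscle markers overlapped, at 2.23 to 3.41 and 2.10 to 4.28 FPKM (1 of 2 higher). The part of any of these in the Hoxb values was not tested.

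Lrrc29, Poglut1 and Mob3c were among the 5 genes whose pattern over the 10 libraries was most like that of the Hoxb genes. Likeness was the root mean square difference between a gene's centred log2(FPKM + 0.1) values and the mean centred profile of the 5 Hoxb genes that passed the filter, among 14537 genes. It was 0.147 for Lrrc29 and 0.149 for both Poglut1 and Mob3c, against a median of 0.370. The 5 Hoxb genes themselves lay 0.388 (Hoxb2) to 0.513 (Hoxb6) from their mean profile, with counting error of few reads in each distance. A gene that did not vary at all would lie 0.375 from the profile, close to that median. The profile was made from genes chosen on this contrast, among them Hoxb7, which passed the filter through its HG libraries. A steady gene that was higher in HG would thus be close to it, and nothing further is read from the likeness.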

How the data were processed

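The RNA of fetal hearts was extracted with TRIzol and made into stranded mRNA libraries sequenced on an Illumina instrument. The authors deposited FPKM per gene and library, with GO terms and KEGG pathways. The submitters' processing notes name fastp, HISAT2, HTSeq, R 3.2.0 and the build mRatBN7.2, and all per-sample columns were used (0 unused). The 7 genes and every gene list, written by hand, were chosen with earlier results of these data known.

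From the deposited FPKM, log2(FPKM + 0.1) was compared, for genes averaging 0.1 FPKM or more, between 5 CON and 5 HG libraries with limma 3.58.1 in R 4.3.3, with a moderated test, an expression trend and no covariates, and p-values were Benjamini-Hochberg adjusted over all 14542 genes tested. The study's own DESeq takes counts and was not used. For the Hoxb members the fit gave fold changes and standard errors only, and for the 2 under the filter these came from the fit without it. Reads were recovered from the steps between FPKM values. No library repeated another (highest correlation 0.992). The scripts were tested on simulated data, with changes placed only in genes averaging at least 1 FPKM. All Hoxb members lie below that level, so this did not test the range of few reads. Python 3.11.15, numpy 2.4.6, pandas 2.3.3, scipy 1.17.1 and matplotlib 3.10.9 were used for the rest.

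Genes were named by rule: all members, the remaining Hoxb genes, called genes and paralogs of other Hox clusters, up to 3 called genes of each other list by adjusted p, tested neighbours of the cluster, and the 5 genes most like the members. Some genes that the rule names are not reported here. Retinoic acid receptors, Crabp2, Aldh1a3, Rdh10, Cyp26a1 and the neighbours and factors under the filter were named after their values were seen. So were Ezh1, Eed, Pcgf5, Ring1 and Rbbp5, and the markers Kit, Cd34, Gata2, Spn, Myb, Lmod1, Myh11 and Mylk. Gene order and overlaps came from RefSeq models of GRCr8, to which 17829 of 18025 identifiers matched, and no coordinates of it are given since the builds differ. Protein and promoter sequences of the members were not used here. The alternatives were pseudocounts of 1 and 0.01 FPKM, no filter, a filter at 1 FPKM, quantile normalization, median-of-ratios factors, leaving out 10 hemoglobin genes, voom on recovered reads, a replicate block, the ratio of mean FPKM, and each library left out in turn.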

Additional observations from a re-analysis of the deposited data

Results flagged for a closer look

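In each group of 5 libraries, the highest or lowest library was compared with the other 4 for the Hoxb genes, the other tested Hox genes and the summed marker levels. In 6 of 48 such groups 1 library lay far from the rest (a gap above 0.71 of the group's range, Dixon's limit). For normally distributed values chance alone marks about 1 in 20 groups. Levels that rest on a few reads, as in the Hoxb genes, go in steps, and that rate does not hold for them. The 6 are thus given as a description.

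Among the Hoxb genes, CON replicate 2 was high in Hoxb3 (0.106 FPKM, the others 0.0480 to 0.0594). CON replicate 5 was low in Hoxb5 (0.0368 FPKM, 1 read, the others 0.214 to 0.222). For Hoxb8, CON replicate 1 was high (0.0509 FPKM, 2 reads, the others at 0), and HG replicate 3 was high (0.186 FPKM, 7 reads, the others 0 to 0.0501). Hoxb6 and Hoxb7 had no such library in either group.

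Among the marker sums, lung and foregut mesenchyme markers were low in HG replicate 3 (0.405 FPKM, the others 0.563 to 0.618), and fetal liver markers were high in CON replicate 3 (76.4 FPKM, the others 3.12 to 7.88). Without CON replicate 3 the log2 fold changes of Hoxb6 and Hoxb7 were 1.23 and 1.41.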

How the results depend on the processing

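Under the alternatives that kept them, Hoxb6 and Hoxb7 had log2 fold changes of 0.31 to 1.90 and 0.38 to 2.32. Neither passed a filter at 1 FPKM. As deposited their groups did not overlap, so another constant or leaving out a library could not turn the direction. Nothing is read from its constancy. That of Hoxb5 turned to -0.02 without CON replicate 5, and that of Hoxb4 ranged from -0.15 to 0.17. Hoxb8 went from 0.42 to 2.48 as a ratio of mean FPKM and to 0.17 without HG replicate 3. Members whose groups do not overlap numbered 2, and 1 after median-of-ratios scaling, where Hoxb7 overlapped.

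Genes higher in HG numbered 4127, but 2289 after median-of-ratios scaling and 2615 after quantile normalization. Partner and regulator genes were 32 higher and 1 lower, but 19 and 7 after median-of-ratios scaling and 21 and 7 after quantile normalization, and leaving out single libraries gave 0 to 3 lower (0 without HG replicate 4, 3 without CON replicate 5). Neighbours were 2 higher and 1 lower, 0 and 2 after either scaling, 1 higher with no filter or without hemoglobin genes, and 1 to 2 higher and 1 to 2 lower when single libraries were left out. The other Hox genes, 1 lower, gave 0 with a filter at 1 FPKM, which none of them passed. The cause was not tested.

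Replicate numbers did not pair the libraries. Same-numbered CON and HG libraries correlated between -0.126 and 0.108 in their deviations from the group means, over 0.1 in 1 of 5 pairs, and 0 of 5 correlated best with their own number. With a replicate block, 3566 genes were higher and 1530 lower in HG, 28 partner and regulator genes higher and 1 lower, and 1 other Hox gene lower.

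Depth limits the precision, since Hoxb6 and Hoxb7 together rest on 25 reads in CON and 98 in HG.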
